A study of Mus musculus with 23 samples.

Results

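The 34 genes described here are p53 and genes listed as its targets or regulators, sorted by what they do. Whether p53 activates each of them in these cells was not tested. They were named as a list of mouse symbols, matched to Ensembl identifiers, and are 34 of the 55573 genes in the count tables. By role, 6 encode p53, its relative p73 and its feedback regulators (Trp53, Trp73, Mdm2, Mdm4, Ccng1 and Rps27l). A further 5 act on the cell cycle (Plk2, Plk3, Btg2, Gtse1 and Sfn). The cell death group has 11 members (Bbc3, Pmaip1, Trp53inp1, Perp, Tnfrsf10b, Fas, Eda2r, Aen, Ei24, Cdip1 and Apaf1). DNA repair and nucleotide supply have 5 (Polk, Xpc, Ddb2, Rrm2b and Ercc5), and metabolism, signalling and RNA control have 7 (Sesn1, Tigar, Dram1, Gdf15, Epha2, Phlda3 and Zmat3).

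The transcription factor p53 is kept scarce by the ubiquitin ligase MDM2 and is stabilised by DNA damage and other stress. It then binds response elements made of a pair of half-sites and activates genes that stop the cell cycle, start cell death, repair DNA or restrain p53 itself, Mdm2 among them. In embryonic stem cells (ESCs), p53 is also known to lower Nanog and to favour differentiation. SET, which chaperones histones and inhibits PP2A, a phosphatase, is known from work in human and mouse cells to bind the unacetylated tail of p53 and to restrain its transcriptional activity.

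The series asked how SET bears on ESC differentiation through p53 and β-catenin. Polyadenylated RNA was read as 3′ tags (QuantSeq) in 23 libraries, which made 19 samples after libraries of 1 title code were summed. Labelled SET-/- ESCs of the R1 line, in lines KO1 and KO2, were set against R1 wild type (WT) in 2 sets of samples that differ by the first digit of the title code. Each set had 4 KO samples (2 of each line) and 2 WT samples. In set 2, 2 samples of line KO1 and 1 WT sample had 4 days of retinoic acid (RA), an inducer of differentiation. KH2 ESCs carrying a SETa-HA construct under a doxycycline-inducible promoter gave 2 samples with doxycycline (Dox, 1 μg/mL for 24 h) and 2 without. All cultures were grown on mouse embryonic fibroblast (MEF) feeders in serum with LIF, and whether a line is 1 clone, or samples of a group are separate cultures, is not stated, so p-values cover only sample-to-sample spread, which may be technical.

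The sequences shown hold matches to a single p53 half-site near the members' starts. The exact p53 half-site consensus was searched on both strands in the 250 bases before each RefSeq start (GRCm38.p6). It was found for 8 of the 26 members with an entry (30.8%), over 37 starts, against 7.13% of all 32851 starts and 8.2% of all genes with one. A match says only that the letters are there, and a second half-site beside it was not searched for. Each line shows 30 bases on the gene's strand, 5′ to 3′, with the 10-base half-site in capitals.
Mdm2, chr10:117710925-117710954, minus strand, 186 bases before the start: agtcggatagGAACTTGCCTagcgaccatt
Ccng1, chr11:40755452-40755481, minus strand, 185 bases before the start: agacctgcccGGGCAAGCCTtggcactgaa
Trp53, chr11:69580274-69580303, plus strand, 75 bases before the start: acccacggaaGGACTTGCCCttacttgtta
Rps27l, chr9:66946193-66946222, plus strand, 210 bases before the start: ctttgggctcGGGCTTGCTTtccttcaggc
Rps27l, chr9:66946296-66946325, plus strand, 107 bases before the start: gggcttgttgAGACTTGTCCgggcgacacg
Aen, chr7:78895927-78895956, plus strand, 121 bases before the start: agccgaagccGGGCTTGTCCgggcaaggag
Ei24, chr9:36797325-36797354, minus strand, 10 bases before the start: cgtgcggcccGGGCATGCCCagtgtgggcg
Polk, chr13:96519399-96519428, minus strand, 231 bases before the start: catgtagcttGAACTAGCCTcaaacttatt
Sesn1, chr10:41887256-41887285, plus strand, 173 bases before the start: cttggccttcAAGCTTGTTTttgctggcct
Of these 8 genes, Mdm2 and Ccng1 were higher in KO than in WT ESCs, and the other 6 did not pass the test in that comparison. Over all members tested 15 of 31 were higher (48.4%), and over all genes 10.4%.

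Values are CPM, the counts of a gene relative to the total of its sample, scaled by the trimmed mean of M-values (TMM), and log2 fold changes come from edgeR fits of all genes, with Benjamini-Hochberg adjusted p-values called below 0.05. Samples held 806412 to 10217040 counts, and set 1 was the shallower, so that 3 counts correspond to 0.322 to 3.27 CPM. Set itself stood at 17.0 to 25.3 CPM in the 4 set 1 KO samples, against 959 and 1010.3 in WT, and at 273 to 572 CPM in the 4 set 2 KO samples, against 1205 and 1445 in WT. The labels do not say why this much Set transcript remained in set 2 KO samples, so set 2 KO values are those of samples labelled KO with part of the transcript. Its KO to WT difference was larger in set 1 than in set 2 (log2 difference between sets 3.94, SE 0.33, edgeR adjusted p = 2.48e-06). The summed level of 8 ESC markers was 1385 to 1733 CPM in KO and 3195 to 3524 in WT of set 1, and 1506 to 1796 in KO and 2332 to 2610.3 in WT of set 2. In set 2 the libraries also fell into 2 sub-batches of 5 along a first principal component with 31.7% of the variance, a split the titles do not name and that holds 3 KO and 2 WT libraries each.

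In undifferentiated ESCs, about as many of the listed p53 targets were higher in KO cells as were not called, and none was lower. Over both sets (8 KO and 4 WT samples, set as covariate), 31 of the 34 members had enough counts to be tested. Of these, 15 were higher in KO and 0 lower, against a background of 10.4% of all genes higher and 8.63% lower, and 19 of the 31 had an unadjusted p below 0.05. Their median log2 fold change was 0.37, against -0.02 over all genes. The members were chosen with earlier results of these data known, so these shares are not an independent test. Of 36 further p53 pathway targets tested, 5 (13.9%) were higher and 4 lower. All 4 KO samples lay above both WT samples in both sets for 11 members, which held for 7.24% of all genes. These were Mdm2, Ccng1, Plk2, Btg2, Sfn, Pmaip1, Trp53inp1, Perp, Tnfrsf10b, Phlda3 and Zmat3. For 1 member, Xpc, all KO samples lay below WT in both sets, which held for 7.21% of all genes. The called members were 3 of 6 in the feedback group, 3 of 5 in the cell cycle group, 6 of 10 tested in the death group, 0 of 3 tested in the repair group and 3 of 7 in the metabolism, signalling and RNA control group. With counts summed per line and set, 10 members were called, and Sfn, Bbc3, Apaf1, Dram1 and Zmat3 were not.

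**Figure D1:**
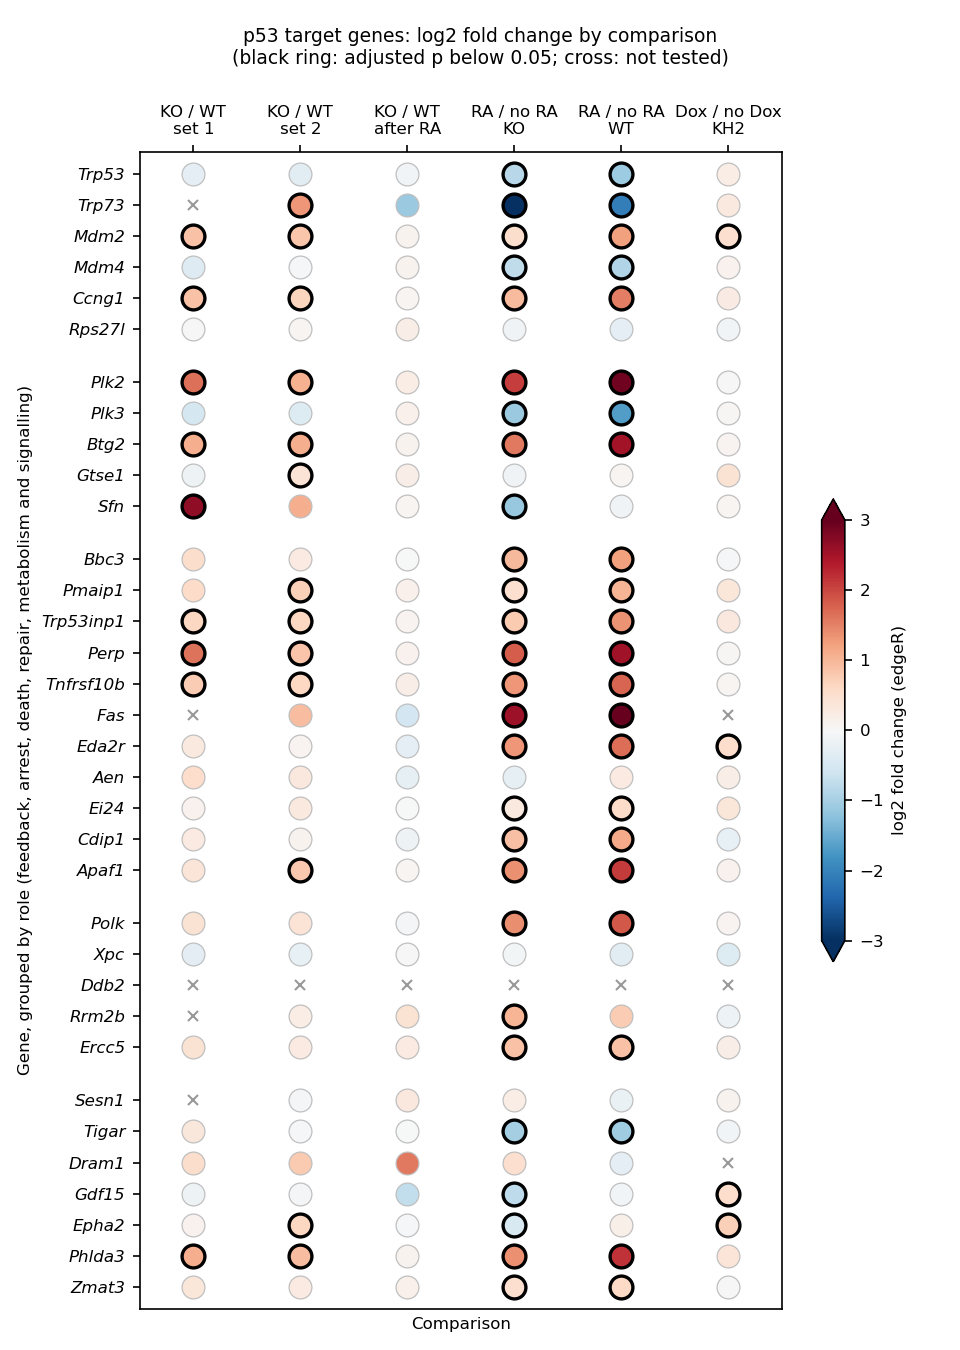
Log2 fold change (colour, edgeR) of each member (rows, grouped by role) in 6 comparisons (columns); a black ring marks an adjusted p below 0.05 and a cross a gene with too few counts to test. The KO columns of sets 1 and 2 hold 9 and 13 rings, all higher in KO; the column for KO against WT after RA holds none; both RA columns hold rings in both directions.

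Among p53 and its feedback genes, the targets Mdm2, Ccng1 and Trp73 were higher in KO, while the Trp53 transcript was not. Mdm2 (chr10:117688875-117710758, minus strand) had 280.5, 315, 265 and 284 CPM in set 1 KO samples, against 161 and 151 CPM in WT samples. In set 2 it had 540.1, 466, 461 and 643 CPM in KO samples and 295 and 309 CPM in WT samples. Every KO sample was above every WT sample of its set (log2 fold change 0.85, SE 0.11, edgeR adjusted p = 4.87e-06). Ccng1 (chr11:40748552-40755311, minus strand), whose product cyclin G1 recruits PP2A to MDM2, had 256, 245, 293 and 309 CPM in set 1 KO samples, against 161 and 141 CPM in WT. Its set 2 values were 226, 243, 266 and 256 CPM in KO and 155 and 166 CPM in WT, again with no overlap (log2 fold change 0.75, SE 0.10, edgeR adjusted p = 1.36e-05). Trp73, which encodes the p53 relative p73, was scarce in set 1, with 3.27, 4.07, 4.87 and 8.01 CPM in KO and 2.46 and 3.41 CPM in WT, where the groups overlapped. In set 2 it had 13.5, 17.6, 17.7 and 17.2 CPM in KO and 6.54 and 6.88 CPM in WT. Its KO samples lay above WT without overlap there, which held for 14.1% of all genes. Over both sets Trp73 was higher in KO (log2 fold change 1.24, SE 0.23, edgeR adjusted p = 0.000502).

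The Trp53 transcript had 176, 151, 126 and 98.6 CPM in set 1 KO samples, against 122 and 217 CPM in WT, and the groups overlapped. In set 2 it had 75.0, 97.2, 96.1 and 87.1 CPM in KO and 123 and 111 CPM in WT. Every KO sample lay below both WT samples there, which held for 17.6% of all genes. Over both sets the difference did not pass the test (log2 fold change -0.34, SE 0.14, edgeR adjusted p = 0.0931). It did when WT sample 1a (adjusted p = 0.0158) or KO1 sample 1c (adjusted p = 0.0396) was left out. It also did with all samples and no low-count filter (edgeR adjusted p = 0.0287). Mdm4, which encodes the MDM2 partner that masks the activation domain of p53, did not pass the test (log2 fold change -0.21 ± 0.11, SE). Nor did Rps27l, a ribosomal protein paralog that binds MDM2 (log2 fold change 0.02 ± 0.11, SE).

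Cell cycle targets held the member with the largest log2 fold change over both sets, Sfn. Sfn (chr4:133600556-133602168, minus strand) encodes 14-3-3 sigma, which in human cells holds the mitotic cyclin and its kinase in the cytoplasm. It had 955, 1245, 926 and 928 CPM in set 1 KO samples, against 144 and 180.0 CPM in WT, and 787, 412, 447 and 364 CPM in set 2 KO samples, against 243 and 238 CPM in WT. All KO samples were above WT, and set 2 KO samples were below set 1 KO samples (log2 fold change 1.75, SE 0.35, edgeR adjusted p = 0.00618). In set 1 alone its fold change was 6.32 (log2 fold change 2.66, SE 0.18, edgeR adjusted p = 8.15e-08), while in set 2 alone it did not pass the test (log2 fold change 1.09, SE 0.36, edgeR adjusted p = 0.14). The call over both sets was lost when counts were summed per line and set (adjusted p = 0.0703).

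Plk2 (chr13:110395046-110400844, plus strand), a polo-like kinase gene, had 84.0, 57.7, 71.4 and 70.3 CPM in set 1 KO samples, against 14.8 and 30.7 CPM in WT. Its set 2 values were 98.4, 117, 109 and 117 CPM in KO and 52.3 and 55.4 CPM in WT, and the groups were apart in both sets (log2 fold change 1.24, SE 0.15, edgeR adjusted p = 2.97e-06). Btg2 (chr1:134075170-134079120, minus strand), whose product slows proliferation and speeds removal of poly(A) tails, had 56.7, 63.1, 77.9 and 85.1 CPM in set 1 KO samples and 37.7 and 29.0 CPM in WT. In set 2 Btg2 had 75.0, 57.6, 55.0 and 39.4 CPM in KO and 31.1 and 24.9 CPM in WT (log2 fold change 1.07, SE 0.16, edgeR adjusted p = 5.45e-05). The polo-like kinase gene Plk3 did not pass the test (log2 fold change -0.45 ± 0.22, SE), and 84 of its last 200 exon bases overlap Tctex1d4 on the other strand, where reads are not counted for either gene. Gtse1, a microtubule-binding protein that restrains p53 after damage, had 144, 136, 142 and 161 CPM in set 2 KO and 101 and 122 CPM in WT and was called there (log2 fold change 0.41, SE 0.12, edgeR adjusted p = 0.03), but not over both sets (log2 fold change 0.14 ± 0.20, SE).

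**Figure D2:**
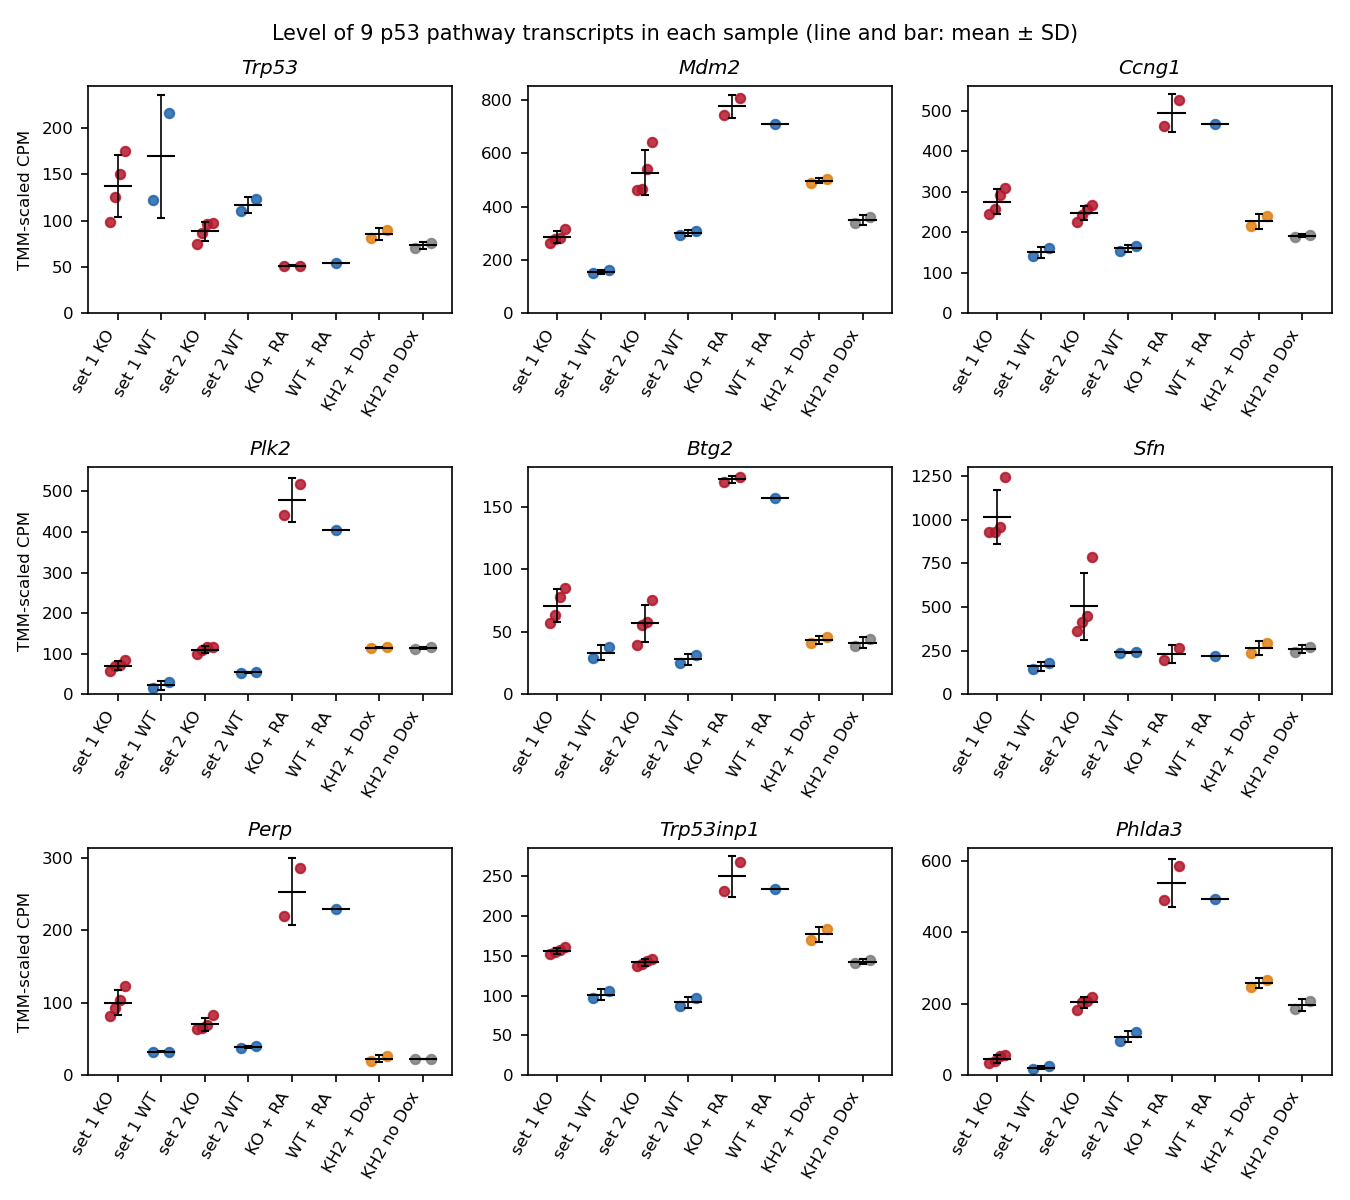
Level (TMM-scaled CPM, linear axis from 0) of 9 genes in every sample by group; points are samples, the line is the group mean and the bar ± SD, with no bar for the single WT sample with RA. For Mdm2, Ccng1, Plk2, Btg2, Sfn, Perp, Trp53inp1 and Phlda3 each set's KO samples sit above its WT samples, and for Trp53 the set 1 groups overlap.

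The death group, the largest, had the most called members, but its share of tested members called (60%) equalled that of the cell cycle group. Its called members lie at several steps of the pathway. Perp (chr10:18845020-18857073, plus strand), a membrane protein of desmosomes that p53 induces during apoptosis, had 92.8, 123, 81.9 and 104 CPM in set 1 KO samples, against 32.8 and 32.4 CPM in WT. In set 2 it had 68.8, 65.3, 64.1 and 83.4 CPM in KO and 38.3 and 40.3 CPM in WT, with no overlap in either set (log2 fold change 1.14, SE 0.15, edgeR adjusted p = 7.96e-06). Trp53inp1 (chr4:11156431-11174379, plus strand), a nuclear body protein linked to p53-driven death and autophagy, had 152, 155, 157 and 161 CPM in set 1 KO and 106 and 96.4 CPM in WT. Its 4 set 2 KO samples had 137, 143, 146 and 140.0 CPM, against 87.0 and 96.5 CPM in WT, and the KO samples of both sets lay within a narrow band above WT (log2 fold change 0.64, SE 0.09, edgeR adjusted p = 3.67e-05).

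The BH3-only genes Bbc3 (PUMA) and Pmaip1 (NOXA) encode proteins that free BAX and BAK to open mitochondria. Pmaip1 had 76.4, 59.0, 73.0 and 88.8 CPM in set 1 KO and 47.6 and 53.8 CPM in WT, and 52.0, 39.6, 39.4 and 33.8 CPM in set 2 KO and 27.5 and 24.6 CPM in WT (log2 fold change 0.63, SE 0.14, edgeR adjusted p = 0.00275). Bbc3 had 97.1, 139, 86.8 and 91.8 CPM in set 1 KO and 71.4 and 74.2 CPM in WT, but its set 2 KO samples, at 127, 152, 128 and 161 CPM, overlapped WT, at 131 and 112 CPM. The Bbc3 call lay next to the threshold (log2 fold change 0.35, SE 0.13, edgeR adjusted p = 0.0497), and 16 of 22 other settings did not call it, among them those without any 1 of 1a to 1f, 2b, 2d or 2f, with adjusted p-values up to 0.181.

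Of the death receptors, Tnfrsf10b (chr14:69767472-69784411, plus strand), the mouse receptor for TRAIL, had 110.2, 87.5, 109.5 and 99.9 CPM in set 1 KO and 54.1 and 67.4 CPM in WT. In set 2 it had 65.9, 67.4, 71.4 and 85.7 CPM in KO and 39.9 and 54.3 CPM in WT, and it was higher in KO (log2 fold change 0.67, SE 0.12, edgeR adjusted p = 0.000424). Fas, the receptor for Fas ligand, had at most 5.58 CPM in untreated R1 samples and was not tested over both sets. Eda2r, a receptor for ectodysplasin A2, did not pass the test (log2 fold change 0.15 ± 0.13, SE). Apaf1, the scaffold of the apoptosome, had 86.4, 97.2, 105 and 70.8 CPM in set 2 KO and 48.1 and 57.5 CPM in WT. Those groups did not overlap, which in this direction held for 14.1% of all genes. Its set 1 groups overlapped, at 48.0, 23.1, 63.3 and 52.4 CPM in KO and 32.8 and 39.3 CPM in WT. Over both sets Apaf1 was called (log2 fold change 0.64, SE 0.18, edgeR adjusted p = 0.0198), and not without WT sample 2a (adjusted p = 0.0916) or 2b (adjusted p = 0.0771). With the first library of each title code its call was also lost (edgeR adjusted p = 0.0639). The nuclease gene Aen, the endoplasmic reticulum gene Ei24 and Cdip1 did not pass the test, with log2 fold changes of 0.37, 0.21 and 0.14.

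No repair member was called, and this group was thinly measured. Of the 3 tested, the lesion-bypass polymerase gene Polk had a log2 fold change of 0.40 ± 0.18 (SE), the damage sensor gene Xpc one of -0.28 ± 0.13, and the excision nuclease gene Ercc5 one of 0.32 ± 0.15. Xpc had 32.7, 29.9, 31.6 and 29.6 CPM in set 1 KO and 33.6 and 43.5 CPM in WT, and 24.9, 27.9, 26.4 and 25.8 CPM in set 2 KO and 35.0 and 29.6 CPM in WT. Its KO samples lay below WT without overlap in both sets, yet it was not called (edgeR adjusted p = 0.14). Rrm2b, the p53-inducible subunit of ribonucleotide reductase, had 1.62 to 4.93 CPM in set 1 KO and 3.41 to 4.10 CPM in WT. Ddb2, the other damage sensor, was at 0 counts in all 6 set 1 samples, below a floor of 3 counts or 1.85 to 3.27 CPM, and at or below 0.430 CPM elsewhere. All of the last 200 exon bases of Ddb2 overlap Acp2 on the other strand, and reads over several genes were not counted, so its level could not be read from these counts.

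Of the genes of metabolism, signalling and RNA control, Phlda3, Dram1 and Zmat3 were higher in KO. Phlda3 (chr1:135766119-135769136, plus strand), whose product competes with AKT for membrane lipids, had 55.7, 53.6, 38.9 and 35.1 CPM in set 1 KO and 18.04 and 24.7 CPM in WT. In set 2 it had 219, 183, 205 and 209 CPM in KO and 96.8 and 120.3 CPM in WT, apart in both sets (log2 fold change 0.97, SE 0.13, edgeR adjusted p = 1.57e-05). Zmat3, an RNA-binding zinc finger protein, had 178, 212, 211 and 199.7 CPM in set 1 KO and 159 and 156 CPM in WT, and 203, 208, 229 and 209.9 CPM in set 2 KO and 189 and 173 CPM in WT. Its samples did not overlap but the difference was small (log2 fold change 0.30, SE 0.09, edgeR adjusted p = 0.0263), and the call ended without 1a, 1b, 1e or 2b, with adjusted p-values of 0.0547 to 0.0929. The lysosomal gene Dram1 had 9.51, 8.31, 7.44 and 8.28 CPM in set 2 KO and 6.21 and 4.19 CPM in WT (log2 fold change 0.68, SE 0.23, edgeR adjusted p = 0.0423 over both sets), a call that 11 of 22 other settings did not make (1a, 1c, 1e, 2b, 2c or 2d left out among them), with an adjusted p of 0.271 without WT sample 2b. The receptor tyrosine kinase gene Epha2 had 108, 89.8, 101 and 79.8 CPM in set 2 KO and 63.4 and 61.5 CPM in WT and was called there (log2 fold change 0.64, SE 0.14, edgeR adjusted p = 0.00496), but not in set 1 or over both sets. Sesn1, which restrains mTORC1, Tigar, which acts on fructose bisphosphate, and Gdf15, a secreted stress cytokine, did not pass the test over both sets, with log2 fold changes of 0.07, 0.10 and -0.10.

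Markers of other cell types moved with these groups. The summed level of 14 feeder fibroblast markers was 129.6 to 159.8 CPM in KO and 25.6 to 41.8 CPM in WT of set 1, and 139.8 to 176 CPM in KO and 84.0 to 112 CPM in WT of set 2, and 4 of the 9 tested were higher in KO. Of the defining ones, Col1a1 had 45.0 to 61.7 CPM in KO and 10.7 and 2.56 CPM in WT of set 1. Col1a2 had 9.50 to 18.6 CPM in KO and 3.28 and 4.27 CPM in WT of set 1. Col3a1 had 0 counts in WT sample 1b. The 12 primitive and visceral endoderm markers summed to 1257 to 1751 CPM in KO and 580.2 to 691 CPM in WT of set 1, and to 1029 to 1193 CPM in KO and 606 to 629 CPM in WT of set 2, and 9 of 12 were higher in KO. In these bulk samples, a different number of cells of a type and a different amount of RNA per cell cannot be told apart. The part of these markers' cells in the p53 target result was not tested.

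The sets, taken alone, gave the same direction. In set 1, 9 of 29 tested members were higher in KO and 0 lower (background 7.19% higher and 5.1% lower), and in set 2, 13 of 33 were higher and 0 lower (background 5.64% higher, 3.55% lower and 9.19% in either direction). In set 2 the count was 8 without WT sample 2b, which ended the calls of Trp73, Btg2, Gtse1, Pmaip1 and Epha2 (adjusted p-values 0.0715 to 0.332), and leaving out WT sample 2a ended those of Gtse1, Pmaip1 and Tnfrsf10b, with the Tnfrsf10b adjusted p at 0.189 without 2a. In set 1 the counts ran from 6 without 1a to 10 without 1d, and Btg2, Trp53inp1, Tnfrsf10b and Phlda3 lost their call without 1 or more of 1a, 1b, 1c and 1e (adjusted p-values 0.0532 to 0.195). The 8 members called in both sets alone were Mdm2, Ccng1, Plk2, Btg2, Trp53inp1, Perp, Tnfrsf10b and Phlda3. The share of all genes called in both sets was not counted. The difference of the KO effect between sets was called by edgeR for 0 of 31 members (background 0.828%), with 2 at an unadjusted p below 0.05, and by DESeq2 for 1. Those 2 were Sfn (log2 difference, set 2 minus set 1, -1.57, SE 0.37, edgeR adjusted p = 0.0878) and Perp (log2 difference -0.78, SE 0.26, edgeR adjusted p = 0.209). Mdm2 had log2 fold changes of 0.89 ± 0.16 (SE) in set 1 and 0.84 ± 0.13 in set 2, and Trp53inp1 had 0.64 ± 0.17 and 0.66 ± 0.11, in sets whose remaining Set transcript differed.

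Lines KO1 and KO2 were alike for some members and apart for others. Against the WT mean of their set, Plk2 had a log2 ratio of 1.64 in both lines of set 1, and of 1.00 in KO1 and 1.07 in KO2 of set 2. Trp53inp1 stood at 0.60 in KO1 and 0.65 in KO2 of set 1, and at 0.61 in KO1 and 0.64 in KO2 of set 2. Btg2 changed its order between the sets, with 0.84 in KO1 and 1.29 in KO2 of set 1, and 1.24 in KO1 and 0.75 in KO2 of set 2. In set 1 Trp73 stood at 0.32 in KO1 and 1.13 in KO2, and Apaf1 at -0.02 in KO1 and 0.68 in KO2, where Apaf1 in KO1 sample 1d had 23.1 CPM. Differences between the lines were not tested here.

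Within the sub-batches of set 2, KO libraries were above WT libraries for the leading members. Title codes 2a, 2b, 2d and 2e each gave their first library to A and their second to B. The sub-batches thus share samples and do not repeat the result independently. Fits with libraries unsummed that hold both sub-batches treat libraries of the same title code as separate samples. Mdm2 had 524, 506 and 633 CPM in KO and 275 and 293 CPM in WT libraries of sub-batch A, and 538, 415 and 432 CPM in KO and 294 and 341 CPM in WT libraries of sub-batch B. Btg2 had 37.7, 35.8 and 38.8 CPM in KO and 18.7 and 22.1 CPM in WT libraries of A, and 74.7, 68.6 and 59.99 CPM in KO and 39.7 and 32.7 CPM in WT libraries of B. The KO libraries of A thus reached the level of the WT libraries of B for Btg2, while each sub-batch kept KO above WT. Sfn had 268, 357 and 358 CPM in KO and 247 and 243 CPM in WT libraries of A, and 784, 492 and 465 CPM in KO and 225 and 205 CPM in WT libraries of B, the KO libraries of B being above those of A. Epha2 did not keep apart, with 80.7, 60.9 and 78.5 CPM in KO and 41.6 and 48.2 CPM in WT libraries of A, and 108, 93.0 and 112 CPM in KO and 78.3 and 102 CPM in WT libraries of B. With libraries unsummed, 10 of 31 members tested were called higher in A alone (background 2.45%), 12 of 32 in B alone (background 7.27%) and 15 of 32 with sub-batch as a covariate (background 8.11%), which also called Trp53 lower (background 5.92%).

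**Figure D3:**
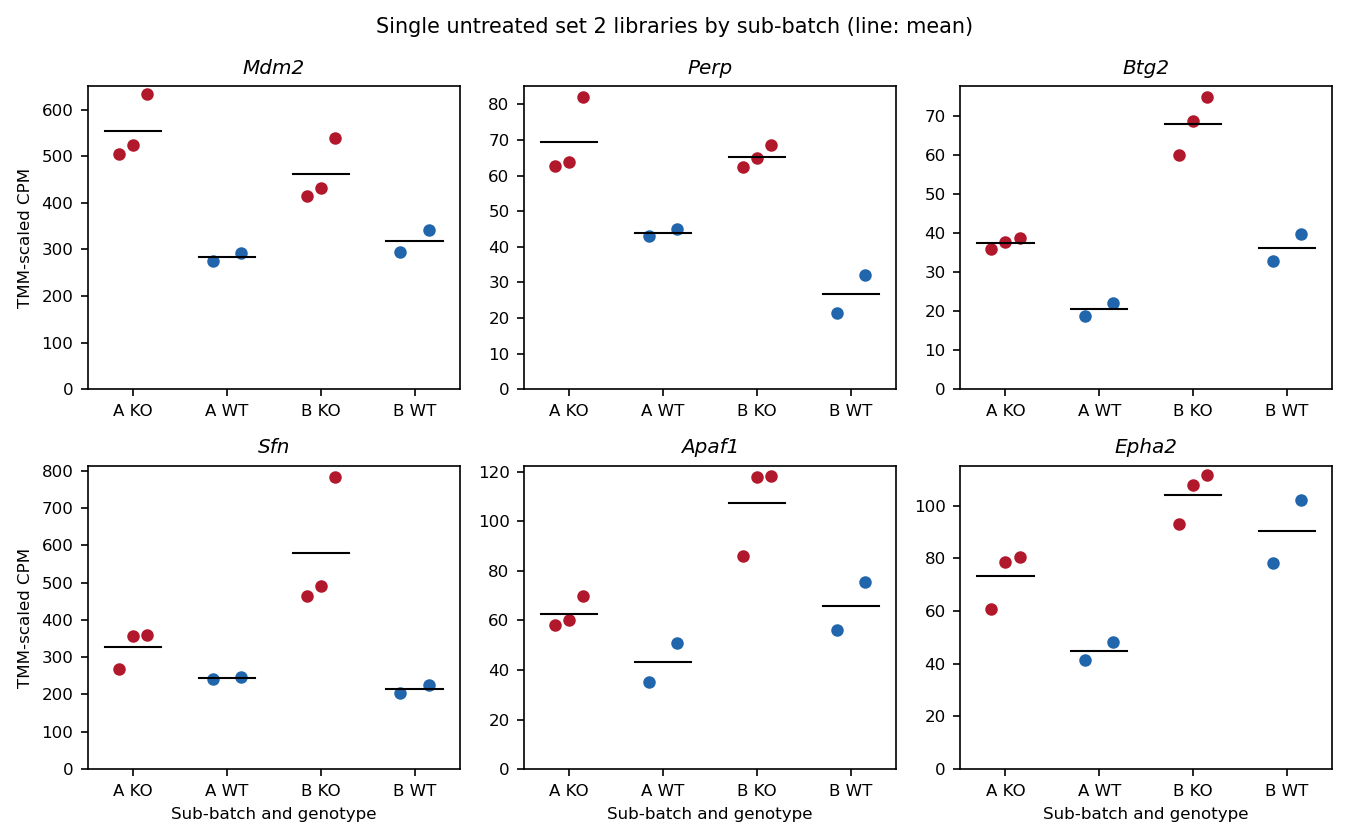
Level (TMM-scaled CPM, linear axis from 0) of 6 genes in single untreated set 2 libraries by sub-batch and genotype; points are libraries and the line is their mean. KO libraries lie above WT libraries in both sub-batches for Mdm2, Perp, Btg2, Sfn and Apaf1, while for Epha2 they overlap in sub-batch B. The sub-batches share title codes 2a, 2b, 2d and 2e.

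After 4 days of RA most of these genes differed from untreated cells, in both genotypes and in both directions. In KO cells (2 RA samples of line KO1 against 4 untreated samples of both lines), 19 of 33 tested members were higher after RA and 8 lower, against 28.3% higher, 26.8% lower and 55.1% in either direction among all genes. In WT cells (1 RA sample against 2 untreated), 18 were higher and 5 lower, against 24.8% higher, 22.5% lower and 47.3% in either direction. All samples of WT with RA lay above untreated WT for 21 members and below for 9, but with 1 sample against 2 this held for 44.6% and 45.1% of all genes. In KO, RA samples lay above untreated samples without overlap for 20 members and below for 7. This held for 33.7% and 29.4% of all genes. The same 18 were higher and the same 5 lower in both genotypes, and the share of all genes called in both was not counted. Median log2 fold changes were 0.51 in KO and 0.77 in WT, against -0.01 and -0.03 over all genes. The death group moved one way, with 10 of 11 higher in each genotype and 0 lower, while the feedback group was split, with 2 higher and 3 lower in each.

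The genes that rose most with RA were Fas, Plk2, Perp and Btg2. Fas had 19.1 and 31.0 CPM in KO samples with RA, against 2.20, 4.53, 5.58 and 2.98 CPM in untreated KO, and was higher (log2 fold change 2.57, SE 0.27, edgeR adjusted p = 6.18e-09). In WT it had 36.0 CPM with RA, against 1.96 and 2.26 CPM untreated (log2 fold change 4.04, SE 0.39, edgeR adjusted p = 2e-09). Plk2 had 441 and 518 CPM in KO with RA, against 98.4 to 117 CPM in untreated KO, and 406 CPM in WT with RA, against 52.3 and 55.4 CPM in untreated WT (log2 fold changes 2.08 in KO and 2.91 in WT). No untreated sample of Plk2 came near the RA samples. Perp reached 220.5 and 286 CPM in KO with RA, against 64.1 to 83.4 CPM in untreated KO, and 229 CPM in WT with RA, against 38.3 and 40.3 CPM in untreated WT (log2 fold changes 1.82 in KO and 2.54 in WT). Btg2 had 173 and 169.9 CPM in KO with RA, against 39.4 to 75.0 CPM in untreated KO, and 157 CPM in WT with RA, against 31.1 and 24.9 CPM in untreated WT (log2 fold changes 1.58 in KO and 2.53 in WT). All RA samples were above all untreated samples for these 4 genes. Among all genes, RA samples lay above untreated samples of their genotype for 33.7% in KO and 44.6% in WT.

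Other death genes rose as well. Apaf1 had 218 and 267 CPM in KO with RA, against 70.8 to 105 CPM in untreated KO, and 229.9 CPM in WT with RA, against 48.1 and 57.5 CPM in untreated WT (log2 fold changes 1.38 in KO and 2.10 in WT). Eda2r, not called by genotype, had 127 and 150.1 CPM in KO with RA, against 41.0, 55.9, 56.3 and 60.6 CPM in untreated KO (log2 fold change 1.33, SE 0.13, edgeR adjusted p = 1.14e-09), and 168 CPM in WT with RA, against 43.8 and 58.7 CPM in untreated WT (log2 fold change 1.69, SE 0.18, edgeR adjusted p = 1.02e-08). Aen was the death member that did not pass the test in either genotype.

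The BH3-only genes rose by less. Bbc3 had 280.4 and 289 CPM in KO with RA, against 127 to 161 CPM in untreated KO, and 282 CPM in WT with RA, against 131 and 112 CPM in untreated WT (log2 fold changes 0.96 in KO and 1.22 in WT). Pmaip1 had 56.8 and 61.4 CPM in KO with RA, against 33.8 to 52.0 CPM in untreated KO, and 52.1 CPM in WT with RA, against 27.5 and 24.6 CPM in untreated WT (log2 fold changes 0.50 in KO and 1.02 in WT). The highest untreated KO sample of Pmaip1 lay next to the WT sample with RA. With untreated KO1 samples alone as control, the line of the RA samples, 23 members were called in KO in place of 27, and Pmaip1 (adjusted p = 0.0954), Ei24 (0.108), Rrm2b (0.09) and Gdf15 (0.0946) were not. The Pmaip1 call was also lost without KO1 sample 2i (adjusted p = 0.0714). Tnfrsf10b had 181 and 192 CPM in KO with RA, against 65.9 to 85.7 CPM in untreated KO, and 161 CPM in WT with RA, against 39.9 and 54.3 CPM in untreated WT (log2 fold changes 1.33 in KO and 1.74 in WT). Trp53inp1 had 231 and 268 CPM in KO with RA and 234 CPM in WT with RA (log2 fold changes 0.78 in KO and 1.34 in WT), above all untreated set 2 samples. Cdip1 had 159 and 153 CPM in KO with RA, against 70.2 to 87.7 CPM in untreated KO, and 170.1 CPM in WT with RA, against 84.0 and 73.1 CPM in untreated WT (log2 fold changes 0.90 in KO and 1.13 in WT). Ei24 rose least of the death genes called, with log2 fold changes of 0.28 in KO and 0.57 in WT, and its KO call was lost without sample 2d, 2e or 2i, with adjusted p-values up to 0.352.

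Mdm2, Ccng1, Phlda3 and Zmat3, which were higher in untreated KO cells, also rose with RA. Mdm2 had 745 and 806 CPM in KO with RA, against 461 to 643 CPM in untreated KO (log2 fold change 0.52, SE 0.11, edgeR adjusted p = 0.000412), and 711 CPM in WT with RA, against 295 and 309 CPM in untreated WT (log2 fold change 1.23, SE 0.16, edgeR adjusted p = 5.74e-07). Ccng1 had 462 and 527 CPM in KO with RA and 467 CPM in WT with RA (log2 fold changes 0.96 in KO and 1.54 in WT), above every untreated sample of set 2. Phlda3 had 491 and 587 CPM in KO with RA, against 183 to 219 CPM in untreated KO, and 495 CPM in WT with RA, against 96.8 and 120.3 CPM in untreated WT. Zmat3 rose by less, with 299.9 and 316 CPM in KO with RA and 274 CPM in WT with RA (log2 fold changes 0.50 in KO and 0.60 in WT).

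In the repair group Polk and Ercc5 were higher in both genotypes, with Polk at 117 and 123 CPM in KO with RA, against 42.1, 51.5, 52.2 and 28.5 CPM in untreated KO (log2 fold change 1.39, SE 0.15, edgeR adjusted p = 1.24e-08), and 123 CPM in WT with RA, against 34.7 and 33.5 CPM in untreated WT (log2 fold change 1.86, SE 0.21, edgeR adjusted p = 6.46e-08). Rrm2b was called in KO only next to the threshold (log2 fold change 1.02, SE 0.37, edgeR adjusted p = 0.022), and its call was lost in 7 of 14 other settings, among them without KO1 sample 2h (adjusted p = 0.108). Ercc5 had 73.8 and 77.5 CPM in KO with RA, against 37.2 to 44.7 CPM in untreated KO, and 61.6 CPM in WT with RA, against 40.9 and 28.8 CPM in untreated WT (log2 fold changes 0.88 in KO and 0.87 in WT). The Ercc5 call in WT ended when WT sample 2b was left out (adjusted p = 0.0704).

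Genes lowered by RA in both genotypes were Trp53, Trp73, Mdm4, Plk3 and Tigar. Trp53 fell to 51.6 and 51.0 CPM in KO with RA, against 75.0, 97.2, 96.1 and 87.1 CPM in untreated KO (log2 fold change -0.84, SE 0.13, edgeR adjusted p = 4.09e-06). In WT it fell to 54.8 CPM with RA, against 123 and 111 CPM untreated (log2 fold change -1.09, SE 0.19, edgeR adjusted p = 2.24e-05). Its transcript was thus lower in the samples in which Mdm2, Ccng1, Plk2 and Perp were higher. Trp73 had 0.403 and 1.06 CPM in KO with RA (log2 fold change -4.51, SE 0.40, edgeR adjusted p = 2.81e-10) and 1.59 CPM in WT with RA (log2 fold change -2.07, SE 0.57, edgeR adjusted p = 0.00358). These values rest on 7 counts over both KO samples and 6 counts in the WT sample, so their counting error is large. Mdm4 fell to 111 and 114 CPM in KO with RA, against 167 to 220.1 CPM in untreated KO, and to 103 CPM in WT with RA, against 199 and 189.9 CPM in untreated WT (log2 fold changes -0.75 in KO and -0.91 in WT). The MDM2 partner thus moved opposite to Mdm2. Tigar fell to 46.2 and 48.4 CPM in KO with RA, against 94.8, 92.7, 86.6 and 102 CPM in untreated KO, and to 47.4 CPM in WT with RA, against 98.4 and 99.2 CPM in untreated WT (log2 fold changes -1.03 in KO and -1.06 in WT). Plk3, scarce throughout, had 5.84 and 3.61 CPM in KO with RA, against 7.32, 11.1, 8.92 and 12.6 CPM in untreated KO, and 4.23 CPM in WT with RA, against 9.48 and 16.3 CPM in untreated WT. It lost its call in KO without sample 2i (adjusted p = 0.109) and in WT without sample 2b (adjusted p = 0.101).

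Sfn, Gdf15 and Epha2 were lower after RA in KO cells and not called in WT. Sfn had 196 and 266 CPM in KO with RA, against 787, 412, 447 and 364 CPM in untreated KO (log2 fold change -1.13, SE 0.29, edgeR adjusted p = 0.0167), and 219 CPM in WT with RA, against 243 and 238 CPM in untreated WT (log2 fold change -0.13, SE 0.40, edgeR adjusted p = 0.817). KO and WT samples with RA lay near the untreated WT level. The difference between genotypes did not pass the test for Sfn (SE of the log2 difference 0.49, edgeR adjusted p = 0.553), Gdf15 (adjusted p = 0.658) or Epha2 (adjusted p = 0.342). The Sfn call in KO was lost without KO2 sample 2e (adjusted p = 0.0889) or 2f (adjusted p = 0.0743), and the Epha2 call, with 53.6 and 86.4 CPM in KO with RA, against 79.8 to 108 CPM in untreated KO, was lost without sample 2h (adjusted p = 0.448). Gdf15 had 8.26 and 7.01 CPM in KO with RA, against at most 15.6 CPM in untreated KO samples. All untreated KO samples were higher than both RA samples, which held for 29.4% of all genes. The Gdf15 call was lost in 7 of 14 other settings, with adjusted p-values up to 0.144.

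After RA, no member passed the test between KO and WT cells. Of 33 tested, edgeR called 0 (background 0.396%), DESeq2 called 0 and 1 had an unadjusted p below 0.05. That was Dram1, with 10.5 and 13.8 CPM in KO with RA, against 3.97 CPM in WT with RA (log2 fold change 1.59, SE 0.45, edgeR adjusted p = 0.206). For Mdm2 the KO to WT log2 fold change after RA was 0.11 ± 0.16 (SE). For Phlda3 the KO to WT log2 fold change after RA was 0.11 ± 0.15 (SE), and over all members tested SEs ran from 0.14 to 0.81. The WT arm is 1 sample, assumed to vary like the other groups, and a difference that misses the threshold here is not shown to be absent. Set was still lower in KO with RA, at 273 and 186 CPM, against 564 CPM in WT with RA (log2 fold change -1.31, SE 0.20, edgeR adjusted p = 0.00518).

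The RA effect was smaller in KO than in WT for Plk2, Btg2 and Phlda3, 3 of 33 members (background 0.744% lower and 0.348% higher). For Plk2 the log2 RA effect was 2.08 ± 0.10 (SE) in KO and 2.91 ± 0.15 in WT (log2 difference -0.83, SE 0.18, edgeR adjusted p = 0.0213). For Btg2 it was 1.58 ± 0.13 in KO and 2.53 ± 0.19 in WT (log2 difference -0.95, SE 0.24, edgeR adjusted p = 0.0471), and for Phlda3 1.36 ± 0.11 in KO and 2.18 ± 0.15 in WT (log2 difference -0.81, SE 0.19, edgeR adjusted p = 0.0296). The RA samples of these genes stood close together while the untreated KO samples stood above untreated WT. The median log2 difference over the members was -0.41, against -0.01 over all genes. These effects share the untreated samples with the comparison of KO and WT. All 3 calls were lost with every library as its own sample, without WT sample 2b and without KO1 sample 2h, and the count was 1 without 2a, 2c or 2i and 6 without 2f.

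**Figure D4:**
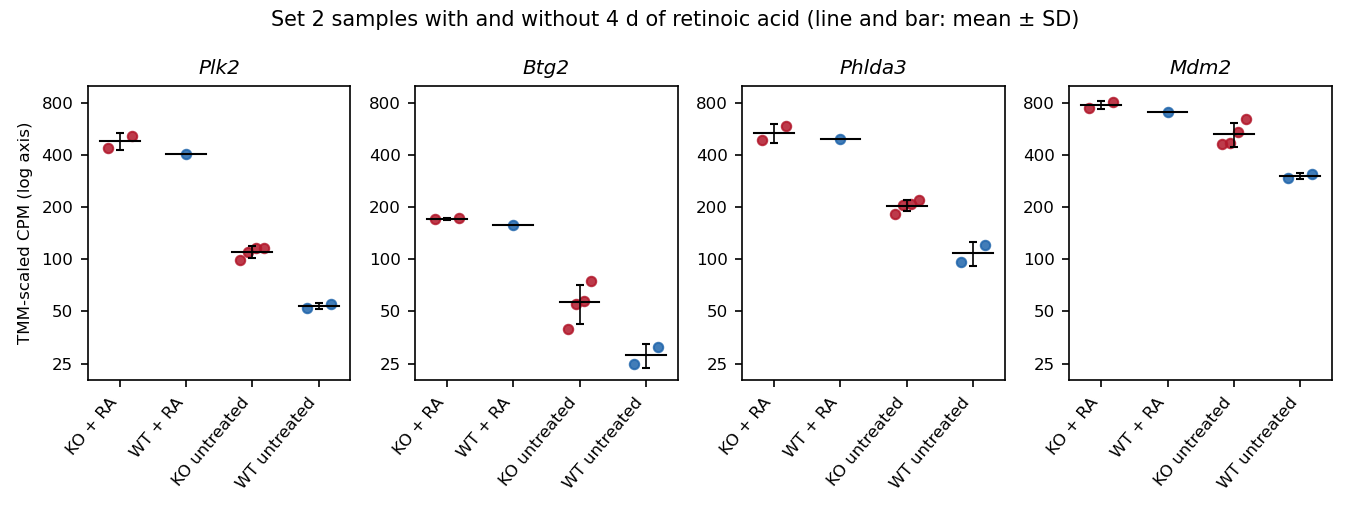
Level (TMM-scaled CPM, log axis) of 4 genes in set 2 samples with and without 4 days of RA; points are samples, the line is the group mean and the bar ± SD. KO and WT samples with RA sit at nearly the same height, and untreated KO samples sit between them and the untreated WT samples.

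Feeder fibroblast markers also rose with RA. Their summed level was 929 to 967 CPM in KO with RA, against 139.8 to 176 CPM in untreated KO, and 939 CPM in WT with RA, against 84.0 to 112 CPM in untreated WT. Of the 12 tested, 11 were higher in KO and 10 in WT, while all 8 ESC markers fell in both genotypes. Endoderm markers summed to 2128 to 2314 CPM in KO with RA and 1149 CPM in WT with RA. The part of these cells in the members' RA result was not tested.

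With 24 h of Dox in KH2 ESCs carrying the SETa construct, 4 of 31 tested members were higher and 0 lower. The background was 0.896% higher, 0.904% lower and 1.8% in either direction. Of the 15 members higher in KO over both sets, Mdm2 was also higher with Dox. No cells without the construct had Dox, so effects of Dox itself and of SETa cannot be told apart. Counts assigned to Set were 1266 and 1123 CPM with Dox and 1012 and 961 CPM without, and were not called (log2 fold change 0.28, SE 0.10, edgeR adjusted p = 0.175), and whether transgene tags are counted there was not tested. Mdm2 had 490.0 and 504 CPM with Dox, against 338 and 362 CPM without (log2 fold change 0.51, SE 0.11, edgeR adjusted p = 0.0129). Eda2r had 79.5 and 72.6 CPM with Dox, against 54.3 and 49.6 CPM without (log2 fold change 0.55, SE 0.14, edgeR adjusted p = 0.0394). Both genes had all Dox samples above both samples without Dox, but with 2 samples against 2 this held for 22.9% of all genes.

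Gdf15 had 68.0 and 69.2 CPM with Dox, against 46.9 and 46.8 CPM without (log2 fold change 0.55, SE 0.14, edgeR adjusted p = 0.043). Epha2 had 112 and 69.2 CPM with Dox, against 56.7 and 54.1 CPM without (log2 fold change 0.72, SE 0.17, edgeR adjusted p = 0.0255), and its Dox samples were far apart. The count fell to 0 without either sample lacking Dox and to 1 without the first Dox sample. The 5 members with the largest log2 fold changes in KO did not pass the test with Dox. Trp73 had 15.1 and 17.2 CPM with Dox, against 13.4 and 13.0 CPM without (log2 fold change 0.29 ± 0.23, SE). Its groups did not overlap, as held in this direction for 22.9% of all genes. Plk2 had a log2 fold change of 0.01 ± 0.12 (SE), Btg2 of 0.08 ± 0.16, Sfn of 0.05 ± 0.12 and Perp of 0.04 ± 0.20. Feeder markers were lower with Dox, with a summed level of 454 to 544 CPM, against 755 to 821 CPM without, 4 of 11 tested being called lower, and their part in the Dox result was not tested. A further 6 members had an unadjusted p below 0.05 without passing the adjusted test.

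Genes around the members were counted from lists of 38 further p53 pathway targets and 13 enzymes that modify p53. Of 36 further targets tested over both sets, 5 (13.9%) were higher in KO and 4 lower, shares near the 10.4% higher and 8.63% lower among all genes, with a median log2 fold change of 0.18. The cell cycle inhibitor gene Cdkn1a had 219, 263, 212 and 155 CPM in set 1 KO and 37.7 and 61.4 CPM in WT, and 188, 194, 192 and 221 CPM in set 2 KO and 74.2 and 70.9 CPM in WT. After RA it had 578 and 700.1 CPM in KO and 559 CPM in WT, the same order of groups as Plk2 and Btg2. The phosphatase gene Ptpn14 (log2 fold change 1.35), the peptide transporter gene Tap1 (1.56) and the matrix gene Thbs1 (1.84) were also higher, and Pml (-0.39) and the p53 ubiquitin ligase gene Rchy1 (-0.45) were lower. Of 12 modifiers tested, 3 were lower in KO and 0 higher: the deacetylase gene Sirt1 (-0.61), the acetyltransferase gene Kat2b (-0.67) and the checkpoint kinase gene Chek1 (-0.36). After RA, 20 of 36 further targets were higher and 6 lower in KO cells, against 28.3% and 26.8% of all genes, and 15 were higher and 5 lower in WT cells, against 24.8% and 22.5%. Of 12 modifiers, 9 were lower after RA in KO cells and 7 in WT cells. With Dox, the median log2 fold change was 0.01 over the further targets and 0.10 over the modifiers.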

How the data were processed

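The deposited values are raw whole-number read counts, from featureCounts 1.6.0, which per the file headers used Ensembl release 97 for GRCm38. Its default options drop reads over several places or genes and ignore strand. STAR 2.5.4b and Subread 2.0.0 are named in the submitters' processing notes, and trimming is not stated there. Symbols were found for 55394 of 55573 identifiers.

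Libraries of 1 title code (4 codes of 2 libraries) were summed, which gave 19 samples. edgeR 4.0.16 (R 4.3.3) quasi-likelihood F tests with TMM, filterByExpr (minimum count 10, total 15) and robust dispersions were run in 9 comparisons, adjusted over all genes tested at 0.05, and tested on simulated data. Undifferentiated R1 samples were fitted with set as covariate, KH2 samples alone, and RA effects in 1 fit of set 2. DESeq2 1.42.0, other filters, groupings of libraries and left-out samples were alternatives. Floors of 3 counts cover counting error only. The members, lists and the rule for named genes (every member, Set, Cdkn1a, and the 6 further targets and 3 modifiers with the smallest adjusted p) were chosen with earlier results of these data known. Python 3.11.15, pandas 2.3.3, numpy 2.4.6 and matplotlib 3.10.9 handled tables and figures.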

Additional observations from a re-analysis of the deposited data

Results flagged for a closer look

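Groups of 4 samples or libraries were checked for 1 value far from the other 3 (Dixon's test, critical value 0.829), in 101 groups, where chance alone flags about 1 group in 20. In set 2 KO samples, Trp73 stood at 13.5 CPM in KO1 sample 2c, below the other samples at 17.2 to 17.7 CPM. In set 1 KO samples, Sfn stood at 1245 CPM in KO1 sample 1d, above the others at 926 to 955 CPM. Dram1 stood at 14.6 CPM in KO2 sample 1e of set 1, above the others at 10.2 to 10.9 CPM. Ddb2 was above 0 in 1 of 4 set 2 KO samples, at 0.189 CPM in KO1 sample 2d, and in 1 of 4 untreated set 2 WT libraries, at 0.546 CPM in WT library 3. With the other 3 values at 0, any value above 0 is flagged, so these 2 flags say nothing about Ddb2. The 4 WT libraries came from title codes 2a and 2b.

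The log2 effect of RA was smaller in KO than in WT by a test of the difference itself for Plk2 (-0.83), Btg2 (-0.95) and Phlda3 (-0.81). For these genes the untreated KO samples of set 2 lay above WT without overlap, which held for 14.1% of all genes.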

How the results depend on the processing

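For members already called, and Trp53 over both sets, 1240 values recomputed under alternatives kept their side of the threshold, 132 lost a call, 3 gained one (Trp53, lower in KO) and 0 changed sign. Gains by members not called in the first place show only in the counts that follow. Members called for KO against WT over both sets ran from 10 (counts summed per line and set) to 17 (every library, with set 1 and the sub-batches as covariate, chosen after seeing the data), and from 11 to 16 with 1 sample left out. Leaving out 1 sample gave 6 to 10 members in set 1, 8 to 15 in set 2, 22 to 27 for RA in KO and 21 to 23 for RA in WT, and the count stayed at 0 for KO against WT after RA. For the difference of the KO effect between sets, the count was 1 with the DESeq2 Wald test, with no low-count filter and with libraries unsummed, and 0 to 1 with 1 sample left out. For Dox it was 2 with the DESeq2 Wald test and 0 to 4 with 1 sample left out. For the RA effect by genotype it was 0 with libraries unsummed and 0 to 6 with 1 sample left out. The cause of these changes was not tested, beyond the smaller number of samples where some were left out.

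Replicate numbers did not pair the samples: correlations of same-numbered samples' deviations ran from -0.137 to 0.0442 in set 1, were 0.0411 in KH2 and ran from -0.261 to 0.218 over set 2 libraries. With the replicate number as a block, 9 members were called in set 1 and 7 for Dox. The block with libraries unsummed gave 13 over both sets, 10 in set 2 and 1 for the difference between sets, against 15, 11 and 1 with libraries unsummed and no block. No paired analysis was possible for RA because the design holds 1 WT sample with RA, whose title has no replicate number. WT sample 2g could not be left out where it is the whole RA arm of WT. Set 1 depth limits its test, with 5 members too low to test there.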
